A study of Mus musculus with 24 samples.

Results

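Mouse oocytes exposed in culture to polystyrene microplastics (in vitro PSMPs) were set against oocytes kept in culture as controls (con-in vitro), with 2 RNA sequencing libraries in each group. These 4 libraries were taken by their labels from the 12 RNA columns of the deposited count table. Each library was made from 5 pooled cells, which the labels call oocytes and the series text embryos. The table lists 55401 genes, and these were sorted by counts alone. At 0 in both con-in vitro libraries were 41607 genes, of which 9512 had at least 1 count in in vitro PSMPs and 1425 had at least 10 counts in both in vitro PSMPs libraries. At least 10 counts in all 4 libraries were found for 7448 genes, which held 94.8% and 95.6% of the in vitro PSMPs counts and 98.9% of the counts of con-in vitro replicate 1 and 98.7% of those of replicate 2. At the boundary of the class, 155 genes had exactly 10 counts in their lowest library and 131 genes just outside it had 9. Neither description covers 6346 genes, and 32095 were at 0 in all 4 libraries. Oocytes exposed in the animal (in vivo PSMPs) and their controls (con) are used below beside single results, as are oocytes given SAHA, an inhibitor of histone deacetylases, and exposed oocytes overexpressing Hdac3. The exposure is called low-dose in the series title, but the labels used here name no strain, age, amount, particle size or exposure time, and they do not say whether libraries of a group came from separate mice, so a p-value here speaks of library-to-library spread, which may be technical. With 5 oocytes in a pool, fewer oocytes in good condition and less RNA in each oocyte cannot be told apart.

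A fully grown oocyte transcribes little and lives on messenger RNA stored during its growth. When meiosis resumes, stored messages are polyadenylated and translated or deadenylated and destroyed on a schedule, with RNA-binding proteins, deadenylases and the ubiquitin system as the main tools. RNA sequencing of such cells therefore reads mostly which stored messages are present and whether they carry a poly(A) tail that the amplification can use.

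The 4 libraries differed in depth and in how their counts were spread. Total counts were 10042788 and 12557671 in in vitro PSMPs, against 6219784 and 6403283 in con-in vitro. Genes with any count numbered 20284 and 20468 in in vitro PSMPs, against 11832 and 11640 in con-in vitro. At the depth of the shallower con-in vitro library, 19086 and 18579 genes would be expected in in vitro PSMPs. Genes with 1 to 9 counts made up much of the gap, with 7101 and 7450 in in vitro PSMPs, against 2703 and 2353 in con-in vitro. The 100 genes with the most counts took 31.5% and 33.9% of an in vitro PSMPs library, against 52.2% and 53.3% of a con-in vitro library. The con-in vitro libraries were also less alike, with a correlation of log2(CPM + 1) values of 0.804 between them, against 0.942 between the in vitro PSMPs libraries. Genes with at least 20 counts in 1 library and 0 in its partner numbered 4 and 0 in in vitro PSMPs, against 499 and 527 in con-in vitro. A similar unevenness stood in con, with 1013 and 1298 such genes. The part of depth, amplification and library quality in the results below was not tested.

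**Figure D1:**
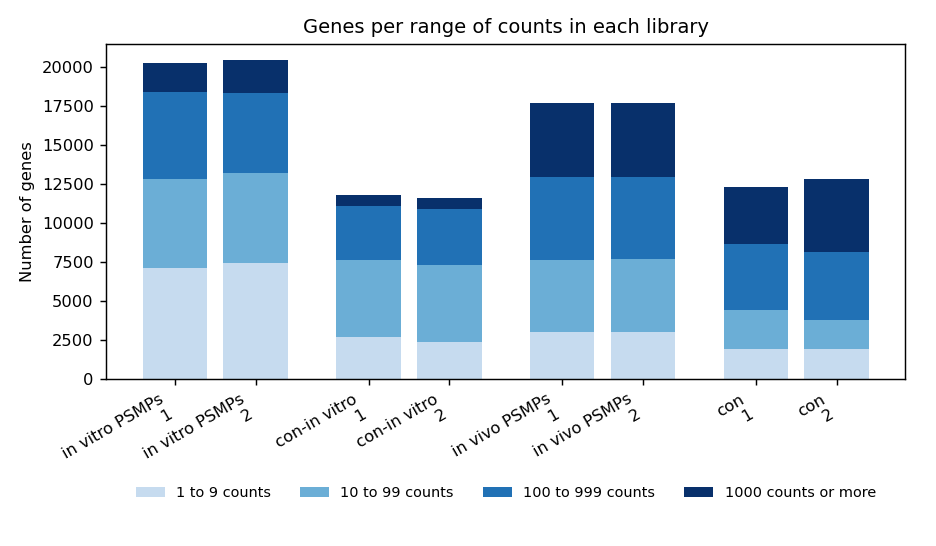
Number of genes (vertical axis) by range of counts in each of 8 libraries, with darker segments for more counts. The in vitro PSMPs libraries reach 20284 and 20468 genes and the con-in vitro libraries 11832 and 11640, and the palest segment, 1 to 9 counts, is 7101 and 7450 genes tall in in vitro PSMPs and 2703 and 2353 in con-in vitro.

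The oocyte label was checked against its markers. Of 35 oocyte genes in the file, such as the zona pellucida, Oosp and Nlrp genes, 33 had at least 10 counts in all 4 libraries. Their summed level was 71627 and 91646 CPM in in vitro PSMPs, against 21821 and 21581 CPM in con-in vitro. In con the sum was 74302 and 69774 CPM, near that of in vitro PSMPs. CPM are counts scaled to library size with TMM factors, a scaling that corrects for libraries in which a few genes take much of the depth. Markers of other cells were low in each group. The 20 cumulus and granulosa genes summed to 37.5 and 63.9 CPM in in vitro PSMPs, against 71.2 and 6.56 CPM in con-in vitro, with 7 and 10 of them at 0 in in vitro PSMPs and 14 and 16 at 0 in con-in vitro. The granulosa genes Foxl2, Amhr2 and Inhbb were at 0 in all 4 libraries, and Inha had 3 counts in each in vitro PSMPs library and 0 in each con-in vitro library. Most of the in vitro PSMPs sum was Cyp19a1, the aromatase gene, with 346 and 600 counts in in vitro PSMPs, against 28 and 0 in con-in vitro, which did not pass the test (adjusted p = 0.127). The 71.2 CPM of con-in vitro replicate 1 came mostly from the gap junction gene Gja1, at 0.162 and 0 CPM in in vitro PSMPs, against 48.7 and 2.19 CPM in con-in vitro. The 12 blood and immune genes summed to 3.00 and 4.28 CPM in in vitro PSMPs, against 3.26 and 11.7 CPM in con-in vitro. The 12 stroma and vessel genes summed to 78.4 and 113.9 CPM in in vitro PSMPs, against 39.5 and 74.9 CPM in con-in vitro, and most of the in vitro PSMPs sum was Pecam1, an adhesion molecule of vessel walls. Pecam1 stood at 49.3 and 67.1 CPM in in vitro PSMPs, against 2.08 and 0.273 CPM in con-in vitro, and con held it at 93.8 and 49.8 CPM.

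Among all genes that passed the expression filter, 1435 of the 16736 tested were called higher in in vitro PSMPs and 1135 lower (8.57% and 6.78%, edgeR's quasi-likelihood test, adjusted p under 0.05). The split depends on scaling. With plain library totals in place of TMM factors, which moves the median log2 fold change of all genes by 0.99, the calls were 3473 higher and 758 lower. The genes with at least 10 counts in all 4 libraries gave 804 higher calls (10.8% of 7448) and 1016 lower calls (13.6%), or 1854 higher and 664 lower with library totals. Their median log2 fold change was -0.21, against 0.71 over all genes tested. At an unadjusted p under 0.05, 3524 of all tested genes were higher and 1987 lower. The calls rested on each library of the exposed group, since leaving out in vitro PSMPs replicate 1 left 498 higher and 461 lower among the genes with at least 10 counts, and leaving out in vitro PSMPs replicate 2 left 350 and 585. Over all genes tested the counts were 614 higher and 470 lower without in vitro PSMPs replicate 1, and 447 and 593 without in vitro PSMPs replicate 2. No gene called in the comparison was called in the opposite direction under any alternative. The 2 libraries of each group did not overlap, higher in in vitro PSMPs, for 30.3% of the 7448 genes and 44.3% of all tested, and lower for 37.6% and 20%, so an absence of overlap alone is common here.

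**Figure D2:**
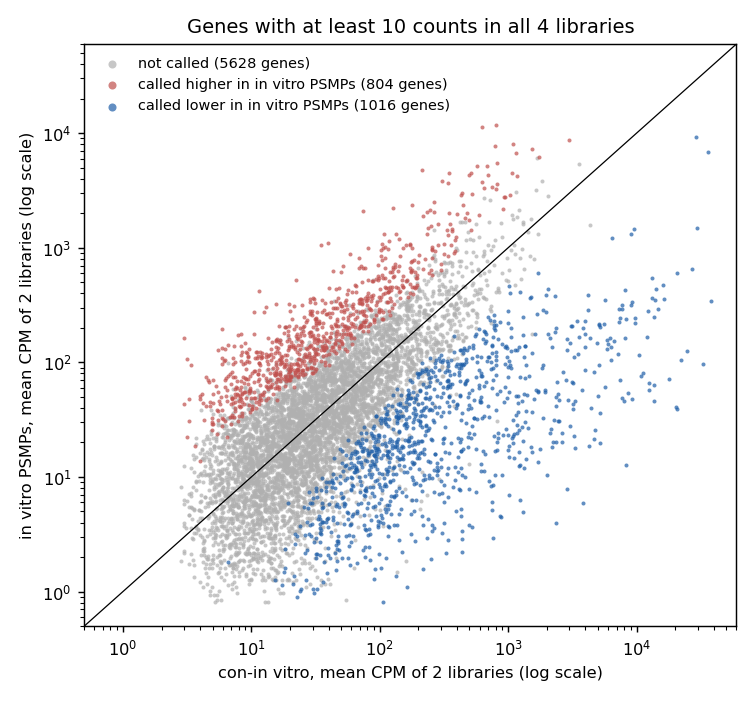
Mean level of each of 7448 genes with at least 10 counts in all 4 libraries, in con-in vitro (horizontal axis) and in vitro PSMPs (vertical axis), both in CPM on log scales, with the line of equal levels. The 804 genes called higher lie above the line, at most 5.77 log2 units from it in the fit, while the 1016 called lower reach 9.33 log2 units below it. The minimum of 10 counts is a higher CPM in con-in vitro, which leaves rises less room than falls.

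Called falls had the larger median size. Among the genes with at least 10 counts, the median size of a called fall was 3.31 on the log2 scale, with 591 of 1016 genes past 3 (8-fold) and 209 past 5 (32-fold). The median size of a called rise was 2.34, with 180 of 804 genes past 3 and 4 past 5. These sizes move with scaling, and with library totals the medians were 3.19 for the 664 falls, of which 360 lay past 3, and 2.61 for the 1854 rises, of which 621 lay past 3. Together the 1016 genes that fell held 7.79% and 8.53% of the in vitro PSMPs counts, against 72.1% and 74.0% of the con-in vitro counts. They held 14.1% and 13.7% of the counts in con, and 8.96% and 8.32% in the SAHA libraries. The 804 genes that rose held 40.5% and 43.0% of the in vitro PSMPs counts, against 4.30% and 3.79% of the con-in vitro counts, and 33.8% and 32.1% of the counts in con. For both sets the share in con lay nearer to that in in vitro PSMPs than to that in con-in vitro. The genes that fell held 13.2% in each in vivo PSMPs column, and 17.35% and 15.3% with Hdac3 overexpression. The genes that rose held 27.4% and 27.3% in in vivo PSMPs, 45.5% and 44.1% in SAHA, and 19.9% and 21.2% with Hdac3 overexpression. Of the 6 groups, con-in vitro had the highest share for the falls and the lowest for the rises. The sets were chosen with con-in vitro, so its place follows in part from that choice.

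The genes with the most counts, not divided by length, differed between the groups. In in vitro PSMPs the list was led by H1f8, the linker histone of the oocyte (ENSMUSG00000042279.13, chromosome 6, 115944938 to 115950236, plus strand), at 10813 and 12819 CPM in in vitro PSMPs, against 813 and 801 CPM in con-in vitro (log2 3.87 ± 0.28, adjusted p = 9.67e-05). Next came Ldhb, the lactate dehydrogenase subunit that favours conversion of lactate to pyruvate, the substrate on which mouse oocytes depend (ENSMUSG00000030246.12, chromosome 6, 142490249 to 142507957, minus strand). It stood at 10057 and 12367 CPM in in vitro PSMPs, against 649 and 600.0 CPM in con-in vitro (log2 4.17 ± 0.31, adjusted p = 0.000102), and con held 1999.8 and 2709 CPM. Also among the 10 highest were Tcl1, a coactivator of Akt kinases, at 6360.0 and 8982 CPM in in vitro PSMPs, against 712 and 862 CPM in con-in vitro, the Bcl2 relative Bcl2l10 at 5437 and 7922 CPM in in vitro PSMPs, against 1366 and 952 CPM in con-in vitro, and the oocyte growth factor gene Gdf9 at 5331 and 7092 CPM in in vitro PSMPs, against 1319 and 2175 CPM in con-in vitro. These 3 rose (log2 3.28 ± 0.34, adjusted p = 0.000379 for Tcl1, log2 2.53 ± 0.32, adjusted p = 0.00114 for Bcl2l10 and log2 1.83 ± 0.34, adjusted p = 0.00745 for Gdf9). In con-in vitro the most counts went to Btg4, the adaptor that brings the CCR4-NOT deadenylase to maternal messages, to Jag1, a Notch ligand, and to Lsm14b, which binds stored messages in oocyte granules. Btg4 stood at 5584 and 8226 CPM in in vitro PSMPs, against 44922 and 27543 CPM in con-in vitro (log2 -2.39 ± 0.39, adjusted p = 0.004). Jag1 stood at 227 and 455 CPM in in vitro PSMPs, against 42037 and 34664 CPM in con-in vitro (log2 -6.81 ± 0.53, adjusted p = 0.000124). Others of the 10 highest there were Wtap of the m6A methyltransferase complex (log2 -5.38 ± 0.46, adjusted p = 0.000204), the actin-related protein gene Actr2 (log2 -7.62 ± 0.67, adjusted p = 0.000217), the transcription factor gene Foxo3 (log2 -7.71 ± 0.42, adjusted p = 5.93e-05), Ccdc6 (log2 -4.30 ± 0.43, adjusted p = 0.000376) and the striatin gene Strn (log2 -5.08 ± 0.48, adjusted p = 0.000273). Spin1, a chromatin reader, was among the 10 highest of both groups, at 8028 and 10378 CPM in in vitro PSMPs, against 35662 and 22435 CPM in con-in vitro. Its call (log2 -1.66, adjusted p = 0.00917) was lost without in vitro PSMPs replicate 1 (adjusted p = 0.079) and with library totals (adjusted p = 0.064).

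Promoters of a pair of genes that rose and of 3 that fell are shown so that their base composition can be seen beside these levels. The sequences are RefSeq's for GRCm38.p6, from 250 bases before to 50 bases after the annotated start, on the gene's strand, and capitals mark GGGCGG or CCGCCC, the 2 strands of the GC box core, which 35.9% of all promoters in the table hold. H1f8 (chr6:115944681-115944980, plus strand) and Ldhb (chr6:142507908-142508207, minus strand) rose, and Jag1 (chr2:137116471-137116770, minus strand), Lsm14b (chr2:180024737-180025036, plus strand) and Cdkn1b (chr6:134920151-134920450, plus strand) fell.
H1f8: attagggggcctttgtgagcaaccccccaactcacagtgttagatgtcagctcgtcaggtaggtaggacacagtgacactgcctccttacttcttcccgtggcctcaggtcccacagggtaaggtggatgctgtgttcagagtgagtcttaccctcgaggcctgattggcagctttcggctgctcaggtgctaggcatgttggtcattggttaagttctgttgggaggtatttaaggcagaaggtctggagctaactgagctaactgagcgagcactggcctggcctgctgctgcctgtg
Ldhb: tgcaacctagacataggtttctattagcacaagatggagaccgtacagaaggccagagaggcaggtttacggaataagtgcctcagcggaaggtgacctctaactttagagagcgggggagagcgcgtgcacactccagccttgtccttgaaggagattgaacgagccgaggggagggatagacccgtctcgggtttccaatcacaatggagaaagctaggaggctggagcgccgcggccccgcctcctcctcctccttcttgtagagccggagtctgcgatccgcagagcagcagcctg
Jag1: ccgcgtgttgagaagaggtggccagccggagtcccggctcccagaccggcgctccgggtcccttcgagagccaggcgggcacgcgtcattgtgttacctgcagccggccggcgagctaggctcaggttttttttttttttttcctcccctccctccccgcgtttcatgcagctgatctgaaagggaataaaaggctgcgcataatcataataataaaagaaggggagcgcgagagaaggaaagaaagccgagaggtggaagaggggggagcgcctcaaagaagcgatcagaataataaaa
Lsm14b: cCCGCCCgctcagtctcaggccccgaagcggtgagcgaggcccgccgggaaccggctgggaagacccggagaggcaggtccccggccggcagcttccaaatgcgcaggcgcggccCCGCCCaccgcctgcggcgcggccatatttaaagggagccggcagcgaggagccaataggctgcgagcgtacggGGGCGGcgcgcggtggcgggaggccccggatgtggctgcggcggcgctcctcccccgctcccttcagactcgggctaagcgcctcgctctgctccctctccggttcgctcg
Cdkn1b: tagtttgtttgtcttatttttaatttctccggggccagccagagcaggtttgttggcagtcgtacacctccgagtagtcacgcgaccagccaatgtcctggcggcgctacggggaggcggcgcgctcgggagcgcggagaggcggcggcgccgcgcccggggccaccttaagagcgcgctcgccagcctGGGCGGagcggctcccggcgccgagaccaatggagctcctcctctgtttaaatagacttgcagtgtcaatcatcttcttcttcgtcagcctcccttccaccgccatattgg
The H1f8 promoter is 54.7% G or C with 5 CG pairs and the Ldhb promoter 57.3% with 17, and neither holds the motif. The Jag1 promoter, of a gene that fell, is 55.7% G or C with 22 CG pairs and holds no match either. The Lsm14b promoter is 74.3% G or C with 40 CG pairs and 3 matches, and the Cdkn1b promoter 62.0% with 30 CG pairs and 1 match. These 5 are examples, and since the promoter table covers 78.9% of the 7448 genes, under the 80% needed here, no comparison of promoters between the sets was made.

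The largest falls with at least 50 CPM in con-in vitro were of genes with low levels in in vitro PSMPs and, for 11 of the 12, in con. Arf6, a small GTPase of membrane traffic and the cell cortex (ENSMUSG00000044147.8, chromosome 12, 69372150 to 69373783, plus strand), stood at 13.3 and 12.4 CPM in in vitro PSMPs, against 8747 and 7735 CPM in con-in vitro (log2 -9.33 ± 0.55, adjusted p = 5.93e-05). Pced1b stood at 5.51 and 6.46 CPM in in vitro PSMPs, against 3257 and 4369 CPM in con-in vitro (log2 -9.31 ± 0.58, adjusted p = 5.93e-05). Cdkn1b, the cyclin-dependent kinase inhibitor p27, stood at 2.76 and 5.17 CPM in in vitro PSMPs, against 2271 and 2435 CPM in con-in vitro (log2 -9.21 ± 0.83, adjusted p = 0.000226). In each of these genes the libraries of a group lay close together and far from the other group. Tspyl1 stood at 49.0 and 29.5 CPM in in vitro PSMPs, against 18304 and 22791 CPM in con-in vitro (log2 -9.03 ± 0.56, adjusted p = 5.93e-05). Dyrk1a, a dual-specificity kinase, stood at 43.5 and 38.0 CPM in in vitro PSMPs, against 20725 and 20128 CPM in con-in vitro (log2 -8.97 ± 0.62, adjusted p = 9.25e-05). Fbxo46, an F-box gene, stood at 10.6 and 5.17 CPM in in vitro PSMPs, against 2431 and 3311 CPM in con-in vitro (log2 -8.51 ± 0.83, adjusted p = 0.000326). Lsm14b stood at 61.7 and 131 CPM in in vitro PSMPs, against 21239.9 and 45012 CPM in con-in vitro (log2 -8.43 ± 0.62, adjusted p = 0.000102). Completing the 12 were the phosphoinositide phosphatase gene Mtmr2 (log2 -8.21 ± 0.49, adjusted p = 5.93e-05), the furry homologue Fry (log2 -8.06 ± 0.48, adjusted p = 5.93e-05), the melanosome transport gene Mreg (log2 -8.04 ± 0.66, adjusted p = 0.000168), the Slit receptor gene Robo1 (log2 -8.01 ± 1.04, adjusted p = 0.00137) and the kinase gene Stk35 (log2 -7.96 ± 0.45, adjusted p = 5.93e-05). For 11 of the 12, con held less than 300 CPM, with 28.0 and 63.3 CPM of Arf6, 42.1 and 107 CPM of Dyrk1a and 249 and 274 CPM of Stk35. The exception was Lsm14b, with 1892 and 1714 CPM in con.

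The largest rises with at least 50 CPM in in vitro PSMPs were smaller than the largest falls. Fbxw23, an F-box gene of an oocyte-expressed cluster, stood at 169 and 157 CPM in in vitro PSMPs, against 2.97 and 3.01 CPM in con-in vitro (log2 5.77 ± 0.52, adjusted p = 0.000217). Gstm5, a glutathione S-transferase, stood at 346 and 491 CPM in in vitro PSMPs, against 17.8 and 5.19 CPM in con-in vitro (log2 5.19 ± 0.62, adjusted p = 0.000898). Romo1, a small protein of the mitochondrial inner membrane, stood at 89.8 and 122 CPM in in vitro PSMPs, against 3.26 and 3.01 CPM in con-in vitro (log2 5.08 ± 0.45, adjusted p = 0.000204). Its level in con, 154 and 146 CPM, was like that in in vitro PSMPs. Tmsb10, an actin monomer binder, stood at 241 and 148 CPM in in vitro PSMPs, against 6.82 and 4.92 CPM in con-in vitro (log2 5.05 ± 0.69, adjusted p = 0.00168), and con held it at 2.85 and 11.0 CPM, like con-in vitro. Cks2, the small subunit of cyclin-dependent kinases needed for meiosis in mice, stood at 829 and 1276 CPM in in vitro PSMPs, against 54.3 and 15.6 CPM in con-in vitro (log2 4.92 ± 0.63, adjusted p = 0.00129). Both Polr2c and Polr2j, of RNA polymerase II, rose. Polr2c stood at 908 and 1305 CPM in in vitro PSMPs, against 53.1 and 26.2 CPM in con-in vitro (log2 4.80 ± 0.43, adjusted p = 0.000217), and Polr2j rose likewise (log2 4.55 ± 0.51, adjusted p = 0.000655). Completing the 12 were Micos10 of the mitochondrial contact site complex (log2 4.78 ± 0.48, adjusted p = 0.000327), Taf10 of TFIID and SAGA (log2 4.54 ± 0.55, adjusted p = 0.000905), the imprint protector Zfp57 (log2 4.54 ± 0.60, adjusted p = 0.00153), the securin gene Pttg1 (log2 4.48 ± 0.50, adjusted p = 0.000613) and the biliverdin reductase gene Blvra (log2 4.46 ± 0.48, adjusted p = 0.000482). Zfp57 stood at 597 and 443 CPM in in vitro PSMPs, against 32.3 and 12.6 CPM in con-in vitro, and con at 15.4 and 33.6 CPM. The SAHA libraries held Zfp57 at 454 and 294 CPM and Tmsb10 at 300.3 and 313 CPM.

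**Figure D3:**
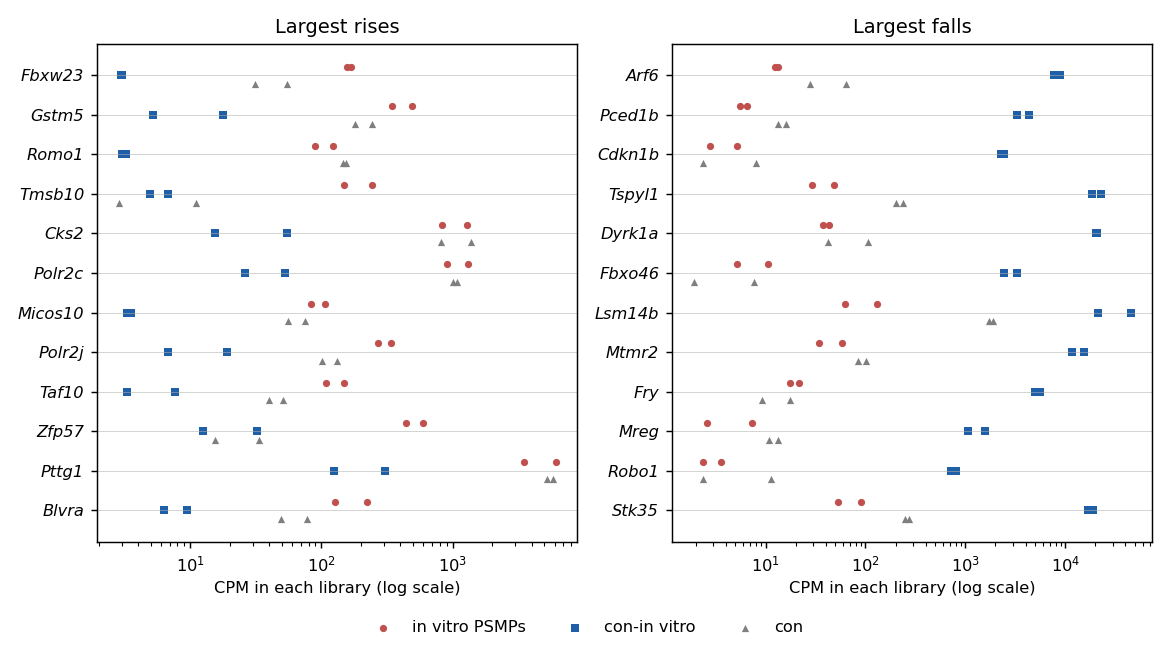
CPM in each library (horizontal axes, log scale) for the 12 largest rises (left) and the 12 largest falls (right) among genes with at least 10 counts in all 4 libraries, with the 2 con libraries for comparison. For the falls the con-in vitro squares stand apart at 719.9 to 45012 CPM while in vitro PSMPs circles and con triangles lie to their left, and for Tmsb10 and Zfp57 the con triangles lie beside con-in vitro.

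Genes were then read in lists by role. The counts below are of list members with at least 10 counts in all 4 libraries, to be set against 10.8% higher and 13.6% lower over the 7448 genes of that class, whose median log2 fold change was -0.21. The lists are not tested as sets. Apart from the histone deacetylases, which gave no call, Sirt4 and Trp53, the examples were picked as genes whose call held in every alternative run, so their stability says nothing of the lists.

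Oocyte identity genes gave higher calls and no lower ones. Of 33 such genes, 11 rose and 0 fell, with a median log2 fold change of 1.52. Besides H1f8, Bcl2l10 and Gdf9 they included Oas1d, an oocyte-specific relative of the antiviral oligoadenylate synthetases, at 4328 and 6004 CPM in in vitro PSMPs, against 626 and 524 CPM in con-in vitro (log2 3.17 ± 0.34, adjusted p = 0.00044). With library totals 22 of the list were higher and 0 lower, and in DESeq2's Wald test 15 were higher and 2 lower. Of the genes that mark genome activation at the next stage, Tcstv1 was the one with at least 10 counts in all 4 libraries, and it rose, at 136 and 176 CPM in in vitro PSMPs, against 14.8 and 16.1 CPM in con-in vitro (log2 3.33 ± 0.44, adjusted p = 0.00142).

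In energy metabolism, nuclear genes of the respiratory chain rose wherever they were called. Of the nuclear genes of respiratory complex I, 7 of 25 rose, of complex III 4 of 8, of complex IV 6 of 12 and of ATP synthase 5 of 18, and none of these 4 lists held a gene that fell. Their median log2 fold changes were 1.09, 1.24, 1.99 and 1.15 in that order. Cox8a, a small subunit of cytochrome c oxidase, stood at 134 and 223 CPM in in vitro PSMPs, against 7.42 and 9.29 CPM in con-in vitro (log2 4.41 ± 0.40, adjusted p = 0.000217). Its partner Cox6b2 stood at 94.5 and 152 CPM in in vitro PSMPs, against 7.42 and 9.56 CPM in con-in vitro (log2 3.86 ± 0.46, adjusted p = 0.000787). Ndufa1 of complex I stood at 84.4 and 124 CPM in in vitro PSMPs, against 8.01 and 4.37 CPM in con-in vitro (log2 4.07 ± 0.53, adjusted p = 0.00128). Atp5b, the catalytic beta subunit of ATP synthase, stood at 440.0 and 591 CPM in in vitro PSMPs, against 85.5 and 149 CPM in con-in vitro (log2 2.14 ± 0.36, adjusted p = 0.00435). In the citric acid cycle list 3 of 20 genes rose and 1 fell. Idh3a, of the NAD-dependent isocitrate dehydrogenase, rose (log2 2.59 ± 0.36, adjusted p = 0.00174), while the cytosolic enzyme gene Idh1 stood at 72.5 and 102 CPM in in vitro PSMPs, against 863 and 598 CPM in con-in vitro and fell (log2 -3.07 ± 0.46, adjusted p = 0.00279). Of 7 glycolysis genes, Ldhb was the 1 that passed. Genes encoded in mitochondrial DNA gave no call among the 7 with at least 10 counts, with a median of -1.12 with TMM factors. Over all 13 tested, 1 was higher and 0 lower, with a median of 0.18. With library totals these were 4 and 0, with a median of 1.15. As a share of plain totals, without TMM factors, their chromosome held 0.329% and 0.415% of the in vitro PSMPs counts, against 0.312% and 0.140% of the con-in vitro counts. Lipid enzymes went both ways. Fatty acid oxidation genes gave 1 higher and 2 lower of 7, or 3 and 2 with library totals. Cholesterol synthesis genes gave 2 higher and 3 lower of 10, or 3 and 2 with library totals. Acsl4, which activates arachidonic acid, stood at 23.2 and 24.9 CPM in in vitro PSMPs, against 431 and 558 CPM in con-in vitro and fell (log2 -4.36 ± 0.43, adjusted p = 0.000301). With 1 library left out, the higher calls of complex I were 4 without in vitro PSMPs replicate 1 and 4 without in vitro PSMPs replicate 2, those of complex III 2 without in vitro PSMPs replicate 1, 1 without in vitro PSMPs replicate 2 and 2 without con-in vitro replicate 1, and those of ATP synthase 2 without in vitro PSMPs replicate 1 and 3 without in vitro PSMPs replicate 2.

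The study's title names histone deacetylases, and none of the 10 tested class I, II and IV genes passed in either direction. Over all genes tested 15.4% passed, so an absence of calls among 10 genes says little. Hdac3, the catalytic subunit of the NCoR and SMRT corepressors, stood at 15.3 and 9.37 CPM in in vitro PSMPs, against 26.7 and 23.8 CPM in con-in vitro (log2 -1.03 ± 0.44, adjusted p = 0.142). Hdac2, a class I enzyme of the NuRD and Sin3 complexes, stood at 96.5 and 92.3 CPM in in vitro PSMPs, against 56.7 and 31.7 CPM in con-in vitro (log2 1.10 ± 0.60, adjusted p = 0.235), and was called higher with library totals (log2 2.10, adjusted p = 0.031). Hdac1 stood at 4.38 and 3.96 CPM in in vitro PSMPs, against 0 and 0 CPM in con-in vitro, 0 counts in each con-in vitro library, and did not pass (adjusted p = 0.0861); it passed with library totals (adjusted p = 0.0498), with only the 2 groups fitted (adjusted p = 0.039) and in DESeq2 (adjusted p = 0.00979). Among the class II genes, Hdac4 stood at 8.19 and 24.7 CPM in in vitro PSMPs, against 18.4 and 48.4 CPM in con-in vitro (adjusted p = 0.456), and Hdac9 at 2.51 and 7.43 CPM in in vitro PSMPs, against 21.4 and 24.0 CPM in con-in vitro (adjusted p = 0.127). DESeq2 called Hdac9 lower (adjusted p = 0.0067). Hdac8 stood at 18.2 and 18.4 CPM in in vitro PSMPs, against 5.64 and 4.64 CPM in con-in vitro (adjusted p = 0.263), and Hdac6, the tubulin deacetylase, at 6.73 and 5.41 CPM in in vitro PSMPs, against 1.78 and 15.8 CPM in con-in vitro (adjusted p = 0.834). The fold change of Hdac6 was negative but was positive with library totals and without con-in vitro replicate 2. Hdac7 was at 0 in in vitro PSMPs and at 0 and 3.28 CPM in con-in vitro, where it passed without con-in vitro replicate 1 (adjusted p = 0.042).

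Other chromatin lists held calls in both directions. Of 4 sirtuin genes, 1 rose and 1 fell. Sirt4, a mitochondrial sirtuin, stood at 41.7 and 78.4 CPM in in vitro PSMPs, against 4.45 and 10.9 CPM in con-in vitro (log2 2.96 ± 0.59, adjusted p = 0.0106), a call lost without in vitro PSMPs replicate 2 (adjusted p = 0.078). Sirt6, a nuclear deacylase of the sirtuin family, stood at 18.7 and 10.0 CPM in in vitro PSMPs, against 1054 and 1684 CPM in con-in vitro (log2 -6.57 ± 0.54, adjusted p = 0.000169), and con held 4.97 and 7.68 CPM. Of 14 histone acetyltransferase genes, 1 rose and 4 fell, with a median of -0.84. The steroid receptor coactivator gene Ncoa3 stood at 140.4 and 189 CPM in in vitro PSMPs, against 4862 and 7631 CPM in con-in vitro (log2 -5.24 ± 0.46, adjusted p = 0.000217), and its relative Ncoa1 fell as well (log2 -6.09 ± 0.54, adjusted p = 0.000217). Kat6b, of the MOZ family, stood at 67.0 and 124 CPM in in vitro PSMPs, against 739 and 877 CPM in con-in vitro (log2 -3.08 ± 0.44, adjusted p = 0.00197). Subunits of the SAGA and ATAC coactivators went both ways, 2 of 16 higher and 2 lower, with Taf10 up and Supt7l down (log2 -3.38 ± 0.52, adjusted p = 0.00279). At 12.5% each way, these calls lay near the shares of all genes of the class. Among 20 bromodomain genes, 1 rose and 4 fell, but with library totals 3 were higher and 1 lower. The one that rose was the germ cell gene Brdt, at 696 and 1009 CPM in in vitro PSMPs, against 133 and 70.5 CPM in con-in vitro (log2 3.07 ± 0.47, adjusted p = 0.00313). With 1 library left out, the higher calls of the acetyltransferases were 0 without in vitro PSMPs replicate 2, 2 without con-in vitro replicate 1 and 0 without con-in vitro replicate 2, the lower calls of the SAGA and ATAC genes 1 without in vitro PSMPs replicate 1 and 1 without in vitro PSMPs replicate 2 and their higher calls 1 without in vitro PSMPs replicate 2, and the lower calls of the bromodomain genes 0 without in vitro PSMPs replicate 1 and 2 without in vitro PSMPs replicate 2.

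Genes of the meiotic cell cycle rose more often than they fell. Of 37 regulators 13 rose and 2 fell, with a median of 0.65. Ccnb1, cyclin B1 of maturation promoting factor, stood at 3474 and 5139 CPM in in vitro PSMPs, against 590.2 and 401 CPM in con-in vitro (log2 3.12 ± 0.37, adjusted p = 0.000871). Pttg1, the securin that holds back separase until anaphase, stood at 3475 and 6088 CPM in in vitro PSMPs, against 304 and 125 CPM in con-in vitro. Aurkc, the aurora kinase of germ cells, stood at 145 and 165 CPM in in vitro PSMPs, against 16.6 and 21.0 CPM in con-in vitro (log2 3.04 ± 0.35, adjusted p = 0.000614). Of 28 centromere and kinetochore genes 6 rose and 0 fell, with Cenpn at 909 and 1074 CPM in in vitro PSMPs, against 118 and 43.4 CPM in con-in vitro (log2 3.62 ± 0.47, adjusted p = 0.00142). Of 21 spindle genes 5 rose and 1 fell. Prc1, which bundles midzone microtubules, stood at 794 and 1187 CPM in in vitro PSMPs, against 100.0 and 111 CPM in con-in vitro (log2 3.23 ± 0.33, adjusted p = 0.000379). Ran, the GTPase whose gradient builds the meiotic spindle, stood at 221 and 196 CPM in in vitro PSMPs, against 19.9 and 19.1 CPM in con-in vitro (log2 3.42 ± 0.36, adjusted p = 0.000394). Kinesins gave 4 higher and 1 lower of 22, with Kif20a at 157 and 246 CPM in in vitro PSMPs, against 25.5 and 22.1 CPM in con-in vitro (log2 3.08 ± 0.47, adjusted p = 0.00302). Kif2a, a microtubule depolymerase, stood at 33.8 and 64.1 CPM in in vitro PSMPs, against 1299 and 673 CPM in con-in vitro (log2 -4.33 ± 0.57, adjusted p = 0.00149). With 1 library left out, the higher calls of the regulators were 8 without in vitro PSMPs replicate 1 and 7 without in vitro PSMPs replicate 2, their lower calls 0 without in vitro PSMPs replicate 1, 1 without in vitro PSMPs replicate 2, 1 without con-in vitro replicate 1 and 0 without con-in vitro replicate 2, the higher calls of the centromere list 2 without in vitro PSMPs replicate 2, the lower call of the spindle list 0 without in vitro PSMPs replicate 1 and 0 without in vitro PSMPs replicate 2, and for the kinesins the higher calls were 2 without in vitro PSMPs replicate 2 and the lower 2 without con-in vitro replicate 1.

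Genes that store and clear maternal messages fell more often than they rose. Of 35 such genes 1 rose and 11 fell, with a median of -0.65, and with library totals 4 were higher and 7 lower. Besides Lsm14b and Btg4, they included Pan3, the regulatory subunit of the PAN2-PAN3 deadenylase, at 125 and 208 CPM in in vitro PSMPs, against 12528 and 11526 CPM in con-in vitro (log2 -6.17 ± 0.51, adjusted p = 0.000173). Ythdf2, the m6A reader that sends messages to decay, stood at 139 and 139 CPM in in vitro PSMPs, against 1482 and 1229.8 CPM in con-in vitro (log2 -3.29 ± 0.41, adjusted p = 0.00113). Among splicing regulators falls were also the more frequent, with 9 of 28 SR and hnRNP genes lower and 3 higher. Hnrnpul1 stood at 2.51 and 4.28 CPM in in vitro PSMPs, against 466 and 412 CPM in con-in vitro (log2 -7.01 ± 0.73, adjusted p = 0.000455). Srsf10 stood at 145 and 164 CPM in in vitro PSMPs, against 783 and 560.1 CPM in con-in vitro (log2 -2.12 ± 0.32, adjusted p = 0.00245). Core spliceosome genes were more often higher, 8 of 33 higher and 4 lower, with the Sm ring gene Snrpg at 126 and 217 CPM in in vitro PSMPs, against 23.1 and 25.1 CPM in con-in vitro (log2 2.83 ± 0.43, adjusted p = 0.0029). Lsm5, of the LSm ring that binds U6, stood at 75.2 and 73.7 CPM in in vitro PSMPs, against 8.61 and 6.28 CPM in con-in vitro (log2 3.32 ± 0.50, adjusted p = 0.00245). RNA polymerase II had 6 of 11 subunit genes higher and 1 lower. Mediator, its coactivator, had 8 of 27 higher and 5 lower, or 12 and 1 with library totals, with Med27 at 826 and 1225 CPM in in vitro PSMPs, against 149.6 and 71.0 CPM in con-in vitro (log2 3.22 ± 0.42, adjusted p = 0.00145). Nuclear pore genes gave 7 higher and 2 lower of 24. Nup98, a pore protein that also acts in transcription, stood at 485 and 602 CPM in in vitro PSMPs, against 13297 and 12948 CPM in con-in vitro (log2 -4.59 ± 0.36, adjusted p = 0.000122). Nup35, of the inner ring, stood at 521 and 798 CPM in in vitro PSMPs, against 70.6 and 82.8 CPM in con-in vitro (log2 3.10 ± 0.39, adjusted p = 0.00118).

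These counts moved when single libraries were left out. The lower calls of the storage and clearance list were 4 without in vitro PSMPs replicate 1, 7 without in vitro PSMPs replicate 2 and 6 without con-in vitro replicate 2, and the higher 0 without in vitro PSMPs replicate 1, 0 without in vitro PSMPs replicate 2, 0 without con-in vitro replicate 1 and 2 without con-in vitro replicate 2. The lower calls of the SR and hnRNP list were 5 without in vitro PSMPs replicate 1 and 5 without in vitro PSMPs replicate 2, and the higher 1 without in vitro PSMPs replicate 2, 5 without con-in vitro replicate 1 and 1 without con-in vitro replicate 2. Spliceosome genes were higher in 4 without in vitro PSMPs replicate 1 and 3 without in vitro PSMPs replicate 2, and lower in 0 without in vitro PSMPs replicate 1 and 0 without in vitro PSMPs replicate 2. Polymerase subunits were higher in 3 without in vitro PSMPs replicate 1 and 3 without con-in vitro replicate 2, and lower in 0 without in vitro PSMPs replicate 1, 0 without in vitro PSMPs replicate 2 and 0 without con-in vitro replicate 2. Mediator genes were higher in 5 without in vitro PSMPs replicate 1 and 5 without in vitro PSMPs replicate 2, and lower in 0 without in vitro PSMPs replicate 1, 1 without in vitro PSMPs replicate 2, 3 without con-in vitro replicate 1 and 3 without con-in vitro replicate 2. Nuclear pore genes were higher in 3 without in vitro PSMPs replicate 2.

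Among translation genes, those of the cytosolic ribosome were seldom called with TMM factors. Cytosolic ribosomal protein genes, 69 of them with at least 10 counts in all 4 libraries, gave 5 higher and 1 lower calls, both under the background shares, with a median of -0.75. These values depend on the processing, and among alternatives higher calls reached 13 and lower calls 12. Over all 83 tested members, 14 were higher and 0 lower with library totals, and the median was 0.43, against -0.61 with TMM factors. Many ribosomal protein genes have processed copies elsewhere in the genome, so their counts are uncertain. Rps27l, a relative of Rps27 induced by p53, stood at 225 and 322 CPM in in vitro PSMPs, against 44.2 and 21.0 CPM in con-in vitro (log2 3.07 ± 0.45, adjusted p = 0.00241). Mitochondrial ribosomal protein genes gave 5 higher and 1 lower of 51, with a median of 0.62. Of 49 initiation factor genes 6 rose and 4 fell, but 15 were higher and 2 lower with library totals. Eif5a stood at 552 and 543 CPM in in vitro PSMPs, against 89.9 and 108 CPM in con-in vitro (log2 2.47 ± 0.29, adjusted p = 0.00071). Eif2b1, of the guanine exchange factor eIF2B, stood at 868 and 1100.5 CPM in in vitro PSMPs, against 138 and 92.1 CPM in con-in vitro (log2 3.10 ± 0.33, adjusted p = 0.000442). Eif4e1b, the cap-binding gene of oocytes, stood at 9.73 and 13.6 CPM in in vitro PSMPs, against 88.1 and 135 CPM in con-in vitro (log2 -3.26 ± 0.51, adjusted p = 0.00325). Eif2ak3, the kinase PERK that halts initiation in endoplasmic reticulum stress, stood at 17.9 and 18.4 CPM in in vitro PSMPs, against 1912 and 1121 CPM in con-in vitro (log2 -6.38 ± 0.64, adjusted p = 0.000375). With 1 library left out, the higher calls of the cytosolic ribosomal list were 2 without in vitro PSMPs replicate 1, 1 without in vitro PSMPs replicate 2 and 1 without con-in vitro replicate 2 and its lower calls 0 without in vitro PSMPs replicate 1, 0 without in vitro PSMPs replicate 2, 0 without con-in vitro replicate 1 and 2 without con-in vitro replicate 2. Those of the mitochondrial ribosomal list were 2 without in vitro PSMPs replicate 1, 2 without in vitro PSMPs replicate 2 and 3 without con-in vitro replicate 2 for higher and 0 without in vitro PSMPs replicate 2 for lower, and the lower calls of the initiation factors were 2 without in vitro PSMPs replicate 1, 2 without in vitro PSMPs replicate 2 and 2 without con-in vitro replicate 2.

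In protein turnover, proteasome genes rose wherever they were called and ubiquitin enzymes were divided. Proteasome subunits gave 9 higher and 0 lower of 32, with a median of 0.99. Psmd2, a scaffold of the regulatory particle, stood at 139 and 108 CPM in in vitro PSMPs, against 11.9 and 9.84 CPM in con-in vitro (log2 3.51 ± 0.44, adjusted p = 0.000981). Psma2, of the outer ring of the core, stood at 886 and 1293 CPM in in vitro PSMPs, against 166 and 41.5 CPM in con-in vitro (log2 3.39 ± 0.59, adjusted p = 0.00559). F-box genes, the substrate receptors of SCF ligases, gave 17 higher and 5 lower of 47, with a median of 1.04. The rises included Fbxw24, at 5228 and 5112 CPM in in vitro PSMPs, against 656 and 707 CPM in con-in vitro (log2 2.92 ± 0.32, adjusted p = 0.000482). Fbxw14 stood at 3399.5 and 4202 CPM in in vitro PSMPs, against 379 and 229.5 CPM in con-in vitro (log2 3.64 ± 0.35, adjusted p = 0.000261). Both are close relatives of Fbxw23, and reads could be divided among such copies, so their separate values are uncertain. Fbxo11 stood at 60.6 and 119.7 CPM in in vitro PSMPs, against 1112 and 978 CPM in con-in vitro (log2 -3.54 ± 0.43, adjusted p = 0.000909). Ubiquitin-conjugating enzymes gave 4 higher and 6 lower of 22, but 5 and 1 with library totals. Ube2h stood at 143 and 165 CPM in in vitro PSMPs, against 5715 and 7611 CPM in con-in vitro (log2 -5.43 ± 0.39, adjusted p = 9.33e-05). Ubiquitin-specific proteases gave 1 higher and 7 lower of 37, turning to 5 and 3 with library totals. With 1 library left out, the proteasome genes gave 4 without in vitro PSMPs replicate 1 and 4 without in vitro PSMPs replicate 2 for higher, the conjugating enzymes 1 without in vitro PSMPs replicate 2 for higher and 2 without in vitro PSMPs replicate 1, 1 without in vitro PSMPs replicate 2 and 3 without con-in vitro replicate 2 for lower, and the proteases 0 without in vitro PSMPs replicate 1, 0 without in vitro PSMPs replicate 2 and 0 without con-in vitro replicate 1 for higher and 0 without in vitro PSMPs replicate 1 and 0 without in vitro PSMPs replicate 2 for lower.

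Membrane traffic and the cytoskeleton held several of the deepest falls. Of 28 Rab genes 0 rose and 6 fell, but 7 were higher and 3 lower with library totals. Rab27a, which works in secretory granule release, stood at 12.2 and 15.0 CPM in in vitro PSMPs, against 1452 and 1969.9 CPM in con-in vitro (log2 -6.98 ± 0.44, adjusted p = 5.93e-05). Arf GTPases and their regulators gave 3 higher and 7 lower of 25, or 8 and 5 with library totals. Besides Arf6, Iqsec1, an exchange factor for Arf6, stood at 9.73 and 9.94 CPM in in vitro PSMPs, against 158 and 324 CPM in con-in vitro (log2 -4.61 ± 0.50, adjusted p = 0.00049). Clathrin, adaptor and endocytosis genes gave 3 higher and 4 lower of 23, or 7 and 4 with library totals, and the higher calls were 1 without in vitro PSMPs replicate 2. Cltc, the clathrin heavy chain, stood at 68.7 and 83.3 CPM in in vitro PSMPs, against 12328 and 9394 CPM in con-in vitro (log2 -7.16 ± 0.37, adjusted p = 5.93e-05). Its assembly partner Picalm stood at 22.2 and 43.5 CPM in in vitro PSMPs, against 1584 and 2156 CPM in con-in vitro (log2 -5.83 ± 0.50, adjusted p = 0.000204). Actin genes of the spindle positioning list gave 3 higher and 6 lower of 20, or 7 and 5 with library totals. Actr2, of the Arp2/3 complex that nucleates branched actin, stood at 104 and 148 CPM in in vitro PSMPs, against 24956 and 24578 CPM in con-in vitro. Its complex partner Arpc1b went the other way, at 312 and 345 CPM in in vitro PSMPs, against 25.8 and 36.6 CPM in con-in vitro (log2 3.39 ± 0.51, adjusted p = 0.00265). Rhoa stood at 53.3 and 57.8 CPM in in vitro PSMPs, against 1637 and 1752 CPM in con-in vitro (log2 -4.93 ± 0.39, adjusted p = 0.000124). Cdc42 stood at 344 and 445 CPM in in vitro PSMPs, against 114 and 98.4 CPM in con-in vitro (log2 1.89 ± 0.30, adjusted p = 0.00311). Vacuolar ATPase and lysosome genes gave 5 higher and 0 lower of 19, with Atp6v1c1 at 308 and 283 CPM in in vitro PSMPs, against 94.4 and 70.2 CPM in con-in vitro (log2 1.84 ± 0.32, adjusted p = 0.00535). With 1 library left out, the lower calls of the Rab genes were 2 without in vitro PSMPs replicate 1 and 2 without in vitro PSMPs replicate 2, those of the Arf list 3 without in vitro PSMPs replicate 1 and 3 without in vitro PSMPs replicate 2 with 1 without in vitro PSMPs replicate 1, 0 without in vitro PSMPs replicate 2 and 0 without con-in vitro replicate 2 for higher, and the higher calls of the lysosome list 2 without in vitro PSMPs replicate 1, 2 without in vitro PSMPs replicate 2 and 3 without con-in vitro replicate 1 with 1 without con-in vitro replicate 1 for lower.

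Stress and defence genes were called in both directions. Of 15 antioxidant genes 3 rose and 1 fell, and without con-in vitro replicate 2 the higher count was 1. Prdx1, a cytosolic peroxiredoxin, stood at 1673 and 2746 CPM in in vitro PSMPs, against 155 and 97.3 CPM in con-in vitro (log2 4.13 ± 0.46, adjusted p = 0.000611). Prdx3, its mitochondrial relative, stood at 34.4 and 9.53 CPM in in vitro PSMPs, against 588 and 439.6 CPM in con-in vitro (log2 -4.55 ± 0.73, adjusted p = 0.00366). Gpx1, the cytosolic glutathione peroxidase, had 585 and 701 counts in in vitro PSMPs, against 0 and 1 in con-in vitro, and is thus outside the class with at least 10 counts. Of 19 endoplasmic reticulum genes 4 rose and 4 fell, and without in vitro PSMPs replicate 2 the higher count was 2. The disulfide isomerase gene P4hb stood at 299 and 434 CPM in in vitro PSMPs, against 50.1 and 43.7 CPM in con-in vitro (log2 2.96 ± 0.37, adjusted p = 0.000942). Canx, a lectin chaperone, stood at 158 and 194 CPM in in vitro PSMPs, against 4773 and 3135 CPM in con-in vitro (log2 -4.49 ± 0.45, adjusted p = 0.000349). Hyou1, a hypoxia-induced chaperone, stood at 12.6 and 21.2 CPM in in vitro PSMPs, against 507 and 1086 CPM in con-in vitro (log2 -5.56 ± 0.60, adjusted p = 0.000519). Xenobiotic response genes gave 0 higher and 2 lower of 5. Arnt, the partner of the aryl hydrocarbon receptor, stood at 17.1 and 18.9 CPM in in vitro PSMPs, against 147 and 148 CPM in con-in vitro (log2 -3.03 ± 0.41, adjusted p = 0.00156). DNA damage response genes gave 3 higher and 1 lower of 20, and among alternatives higher calls reached 7. Trp53, the tumour suppressor, stood at 64.4 and 103 CPM in in vitro PSMPs, against 11.9 and 19.4 CPM in con-in vitro (log2 2.42 ± 0.46, adjusted p = 0.00846), a call lost without in vitro PSMPs replicate 2 (adjusted p = 0.062).

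**Figure D4:**
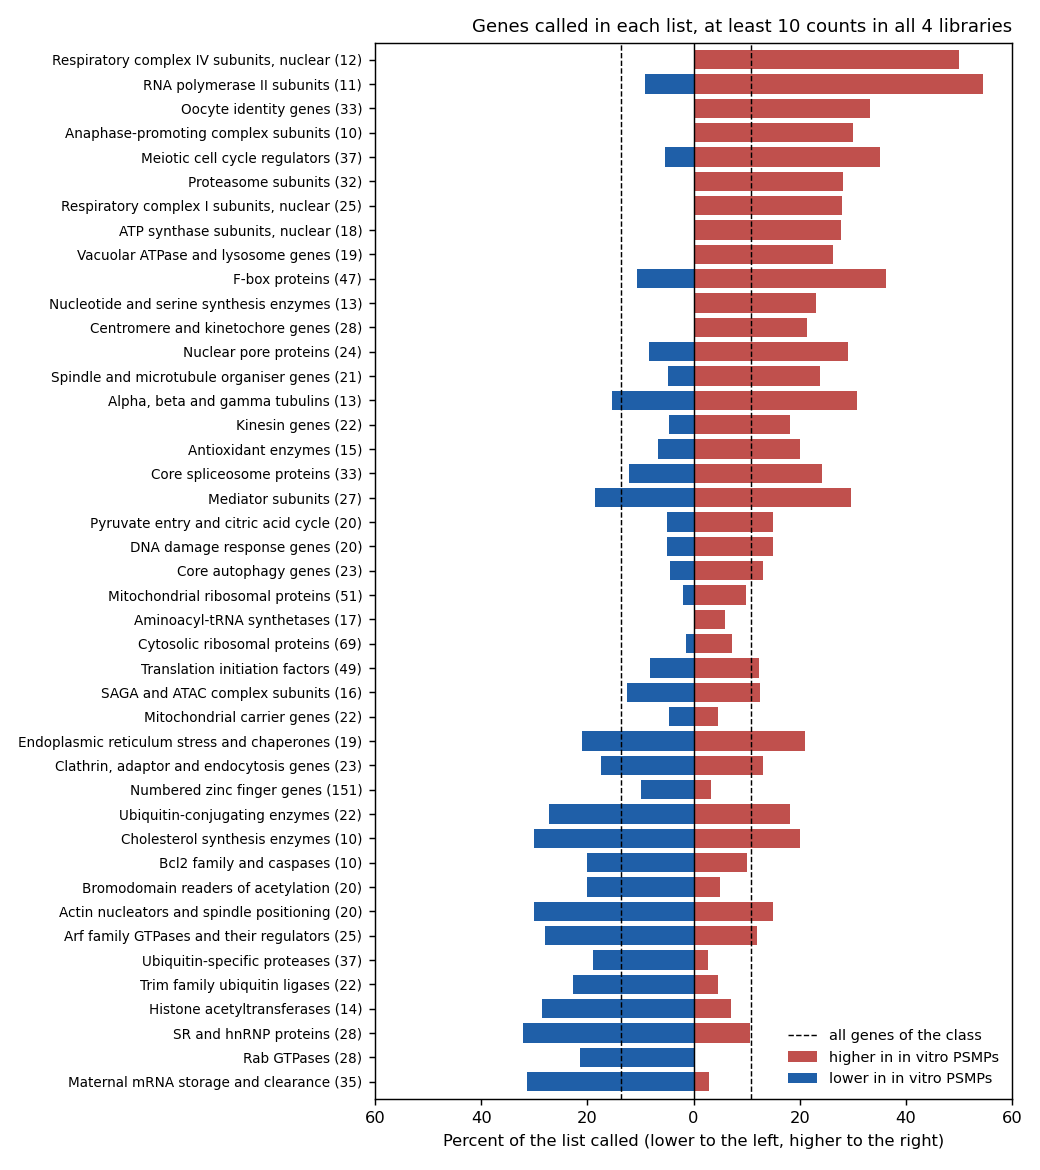
Percent of each list's genes called higher (bars to the right) or lower (bars to the left) in in vitro PSMPs, for lists with at least 10 genes that had 10 counts in all 4 libraries (number of such genes in brackets), ordered by percent higher minus percent lower. Dashed lines mark 10.8% higher and 13.6% lower over all 7448 genes, and respiratory complex IV, with 6 of 12 genes higher, stands at the top while maternal mRNA storage and clearance, with 11 of 35 lower, stands at the bottom.

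The genes at 0 in con-in vitro form a separate class, for which a fold change has no denominator. The 1425 genes with at least 10 counts in both in vitro PSMPs libraries had mean levels from 0.809 to 71.1 CPM with a median of 2.35 CPM, and 1162 of them lay under 5 CPM and 79 at 10 CPM or more. They held 0.634% and 0.548% of the in vitro PSMPs counts. By comparison, the median in vitro PSMPs level of the 7448 genes in the other class was 32.1 CPM. The 1435 higher calls over all genes include 426 of these 1425. Their direction is fixed by their choice, so nothing is read from that count, and the 12 named below are given as bounds without a test. How many genes the class holds depends on depth and library, being 859 when in vitro PSMPs is taken to the depth of the shallower con-in vitro library, 2566 without con-in vitro replicate 1 and 2270 without con-in vitro replicate 2. The con libraries lacked many of the same genes, with 453 of the 1425 at 0 in both con libraries and 481 at 0 in 1 of them, while 341 had at least 10 counts in both. In the SAHA libraries 1284 had at least 10 counts in both, in the Hdac3-overexpressing libraries 824, and in the in vivo PSMPs columns 1007. These numbers were not matched for depth. Total counts were 19223737 and 19446397 in SAHA, 9806958 and 7032473 in the Hdac3-overexpressing libraries, and 30490456 and 30469987 in in vivo PSMPs. At 0 in both libraries were 1 gene of the class in SAHA, 14 with Hdac3 overexpression and 188 in in vivo PSMPs. The part of depth in the differences among these groups was not tested. Of the 1259 genes of the class with a listed biotype, 923 were protein coding, 205 long noncoding and 125 pseudogenes. Protein coding genes made up 73.3% of them, against 95.9% in the class with at least 10 counts. Their median exonic length was 2475 bases, against 4786 bases in that class. The classes were not matched for level, and the part of level in these differences was not tested.

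The 12 genes with the most counts in this class are given as bounds, computed against 3 counts over the 2 con-in vitro libraries. Tada1, an adaptor of the SAGA acetyltransferase complex (ENSMUSG00000026563.13, chromosome 1, 166379097 to 166393621, plus strand), had 714 and 1044 counts in in vitro PSMPs, or 57.9 and 84.3 CPM, at least 167-fold higher. Cenpu, a subunit of the inner kinetochore, had 51.4 and 65.7 CPM in in vitro PSMPs (at least 137-fold). Lsm4, a ring protein of the spliceosome and decay machinery, had 49.4 and 57.5 CPM (at least 125-fold), and con held it at 0 and 15.5 CPM. Fmr1nb, a gene expressed in germ cells, had 52.8 and 50.0 CPM (at least 120.4-fold), and Wdr61, of the PAF and SKI complexes, 39.7 and 51.9 CPM (at least 107-fold). Atg4a, a protease of autophagy, had 32.3 and 46.5 CPM (at least 92.3-fold), and Guk1, guanylate kinase, 18.0 and 29.8 CPM (at least 56.0-fold). Of these 7 genes, Lsm4 was the one at 0 in a con library, and the others lay between 9.10 CPM (Atg4a) and 52.4 CPM (Fmr1nb) there. The others were Tmem74 (at least 56.3-fold), Serpinb3a, a serine protease inhibitor (at least 58.7-fold), the lipid droplet enzyme gene Hsd17b13 (at least 52.7-fold), Jtb (at least 48.1-fold) and Efcab12 (at least 62.6-fold). For Efcab12 con was near 0 as well, at 0 and 0.541 CPM.

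The reverse class was small. At 0 in both in vitro PSMPs libraries were 555 genes seen in con-in vitro, of which 13 had at least 10 counts in both con-in vitro libraries. Those with the most counts, Cercam, Shisa4 and Nectin1, had 33 and 116, 30 and 92, and 36 and 19 counts in con-in vitro. Against 3 counts over the in vitro PSMPs libraries they were at least 171-fold, 140.2-fold and 65.4-fold lower. Skil, a regulator of TGF-beta signalling, had 114 counts in con-in vitro replicate 1 and 1 count in replicate 2.

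Exonic length moved with the fold change. The 7448 genes were put in 5 groups of about equal size by the exonic length in the deposited table. The median log2 fold change was 0.69 in the shortest group (67 to 2560 bases), then 0.13, -0.41 and -0.57, and -0.82 in the longest (8313 to 123179 bases). Higher calls numbered 326, 202, 136, 85 and 55 from short to long, and lower calls 89, 147, 230, 247 and 303. The median length was 3013 bases for genes that rose, 6203 for genes that fell and 4852 for genes without a call. Spearman's correlation of length and log2 fold change was -0.295 over these genes, which share libraries and are not independent replicates. The relation also stood within the exposed group, where the correlation of length with the log2 ratio of in vitro PSMPs replicate 1 to replicate 2 was -0.359, while between the con-in vitro libraries it was -0.042. Across groups it was -0.354 and -0.348 for in vitro PSMPs replicate 1 against con-in vitro replicates 1 and 2, and -0.183 and -0.190 for in vitro PSMPs replicate 2. The part of length in the results of each list was not tested.

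**Figure D5:**
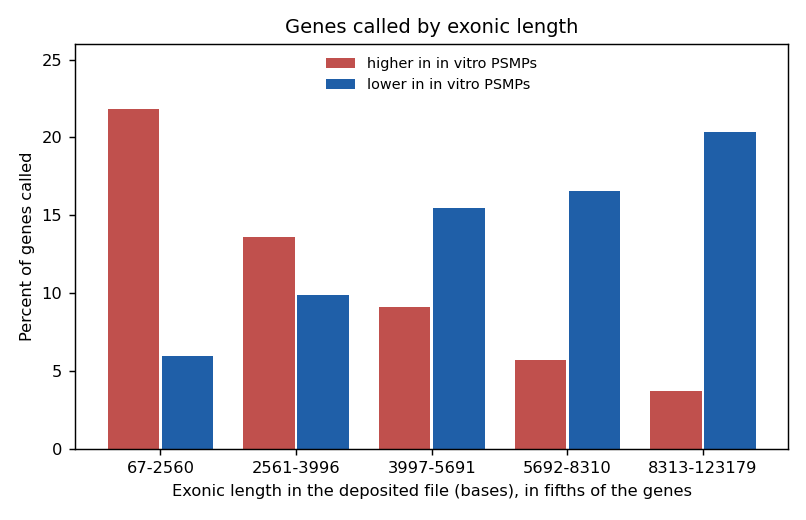
Percent of genes called higher (left bar of each pair) and lower (right bar) in in vitro PSMPs (vertical axis) in 5 groups of the 7448 genes by exonic length in bases (horizontal axis). Higher calls decline from 21.8% in the shortest group to 3.69% in the longest, and lower calls climb from 5.97% to 20.3%.

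Exposure in the animal, in vivo PSMPs against con, shares no library with the comparison in culture. The in vivo PSMPs columns agree within sampling noise and were counted as 1 sample, so the spread of that group is taken from the other groups, and a gene without a call in the animal is not shown to be without a change there. Among the 7448 genes, 235 were called higher in that comparison (3.16%) and 42 lower (0.564%), together 3.72%. Over all genes tested, 4.59% were higher and 4.88% were called in either direction. Of the 804 genes that rose in culture, 4 were called higher and 13 lower in the animal. Of the 1016 that fell in culture, 37 were called higher and 8 lower in the animal. Spearman's correlation of the fold changes over the 7448 genes was -0.062 and Pearson's -0.067, a description across genes. H1f8 rose in culture and stood at 6752 CPM in in vivo PSMPs, against 13468 and 11938 CPM in con. Ldhb stood at 2295 CPM in in vivo PSMPs, against 1999.8 and 2709 CPM in con. Arf6, which was 8747 and 7735 CPM in con-in vitro, stood at 56.4 CPM in in vivo PSMPs, against 28.0 and 63.3 CPM in con. The difference between the effect in culture and the effect in the animal was tested directly, and passed for 815 genes upwards (4.87% of 16736) and 1071 downwards (6.4%). Among the 7448 genes it passed for 546 upwards (7.33%) and 795 downwards (10.7%). That count moved with single libraries, being 369 upwards and 358 downwards without in vitro PSMPs replicate 1, 236 and 354 without in vitro PSMPs replicate 2, and 1478 upwards without con-in vitro replicate 1. It was 1582 upwards and 2133 downwards without con replicate 1, and 2100 and 2900 without con replicate 2. With only the libraries of these 4 groups fitted, the counts were 75 and 170, so the number of genes for which the effects differ is not settled.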

How the data were processed

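RNA was measured in oocyte pools of 6 groups with 2 columns each in the deposited file. Full-length cDNA amplification and transposase-based library preparation were used, per the labels' protocols. The values are raw counts per gene, deposited by the authors without normalization. The submitters' processing notes name the build mm10 and, without role or order, Bowtie2 2.2.5, deepTools 3.5.1, DESeq2, featureCounts, fastp 0.12.4, HISAT2, Picard and SAMtools, and the strand setting of the counting is not given in the sources used here. Antisense and overlapping genes can therefore share reads, and 217 gene IDs share a symbol with another. The exonic length is a column of the deposited file. The series' chromatin profiles are not analysed here.

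Counts of the pair of in vivo PSMPs columns differed less than sampling noise allows (chi-square over degrees of freedom 0.444). They were averaged and rounded into 1 library, leaving 11 libraries. Counts were filtered with edgeR 4.0.16 (R 4.3.3; filterByExpr, minimum count 10), scaled by TMM (factors 1.23 and 0.987 in in vitro PSMPs, 0.542 and 0.572 in con-in vitro) and tested by the robust quasi-likelihood F test over all groups with 5 residual degrees of freedom and Benjamini-Hochberg adjustment over 16736 genes at 0.05. The biological coefficient of variation was 71.85%. The ± after a log2 fold change is its standard error, with n = 2 libraries a group. DESeq2 1.42.0 was an alternative. The fit was also run on counts simulated from mean levels and the fitted spread. Those counts hold no relation to length and no group-wide shift, so that run does not speak to these features. Tables were made with Python 3.11.15. A bound on a fold takes 3 counts over the group at 0 and covers counting error only, since amplified reads are not independent molecules.

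Genes were named by rule: the 12 with the highest level at 0 in con-in vitro, those with the highest level at 0 in in vitro PSMPs, the 12 largest rises and falls of at least 50 CPM, the 10 highest of each group, up to 3 per direction in each of 55 gene lists, 5 per direction of the difference of effects, and the histone deacetylases. Of these, mostly genes whose call held in every alternative run for them were printed, a choice made after their values were seen, as was the naming of Cyp19a1, Foxl2, Amhr2, Inhbb, Inha and Trp53. The members and lists were chosen with earlier results of these data known. Some genes that the naming rule selects are not reported here.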

Additional observations from a re-analysis of the deposited data

Results flagged for a closer look

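The difference between the effect of exposure in culture and the effect in the animal, taken as the contrast (in vitro PSMPs minus con-in vitro) minus (in vivo PSMPs minus con) in the edgeR fit, passed for 815 genes upwards and 1071 downwards, and 109 of the genes named here were among them. In vivo PSMPs is 1 merged library, whose spread is taken from the other groups, and with only the libraries of the 4 groups fitted 75 genes passed upwards and 170 downwards. The 109 are of 127 named genes tested, most of them called in culture or picked by this difference itself. That count follows from their choice, and nothing is read from it. Upwards, the difference was 4.78 on the log2 scale for H1f8, 5.05 for the membrane protein gene Smagp and 5.97 for Vps72, a subunit of histone exchange complexes. For Tada1 the fitted value was 15.06, which depends on the prior count because con-in vitro was at 0. Downwards, it was -6.38 for the ribosome biogenesis gene Utp18, -7.40 for Cltc, -9.55 for Rab27a and -10.20 for the cyclophilin gene Ppwd1. For the transcription factor gene Grhl2 the fitted value was -14.94, again dependent on the prior count.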

How the results depend on the processing

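Of the 117 genes named and called, 109 kept direction and call under each alternative run for them, a share that follows from their choice; the restriction to genes with 10 counts in all 4 libraries was run for 100 of them. The exceptions were Spin1, Trp53, Sirt4, Gja1, Efcab12, Cercam, Shisa4 and Nectin1, none of which reversed. Genes at 0 in both libraries of 1 group, such as Efcab12 and Cercam, are among the 117. Their direction was fixed by their choice, so nothing is read from their calls. Counts of calls also moved, and the cause was not tested. With library totals 3473 of all genes were higher, and 1854 higher and 664 lower among genes with at least 10 counts in all 4 libraries; the difference of effects gave 1320 upwards. The DESeq2 Wald test gave 2643 higher and 1959 lower over all genes, 1689 lower among those with at least 10 counts, and 2012 upwards and 2098 downwards for the difference. With the in vivo PSMPs columns as 2 libraries, 2379 genes were higher, and the difference gave 1931 and 2082. With only the groups of each comparison, the difference gave 75 and 170. Whether the replicate numbers pair the samples is not known. Same-numbered in vitro PSMPs and con-in vitro libraries had a correlation of deviations of -0.031, which cannot exclude pairing in libraries this noisy. With a replicate block, 935 genes were higher, and the difference gave 474 and 682. Leaving out 1 library gave 447 to 1548 higher and 470 to 1094 lower over all genes, 350 to 796 and 461 to 940 among genes with at least 10 counts, and 236 to 2100 upwards and 354 to 2900 downwards for the difference; a lone library was then assumed to vary like the other groups. The class at 0 in con-in vitro held 859 genes at matched depth, 3087 at a minimum of 3 counts and 261 at 50, and 1851 to 2566 with 1 library left out, the last chosen after seeing the data. Hdac6 was 0.44 with library totals, and from -1.376 to 1.771 with 1 library left out (1.771 without con-in vitro replicate 2). The list counts under alternatives were also chosen after seeing the data. The depth of con-in vitro, the shallowest group of the comparison, limits which genes can be told from 0.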
